A study of Homo sapiens with 6 samples.

Results

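The keratin family is the set of genes that encode the intermediate filament proteins of epithelial cells. It was taken here as every protein-coding gene whose symbol is KRT followed by digits and at most 1 letter, which leaves out the keratin-associated proteins. This gave 55 genes of 58478 in the table, of which 19867 were protein-coding. By role, 6 are simple epithelial keratins, 22 keratins of stratified epithelium, 17 hair and nail keratins, and 9 keratins of the hair root sheath, with KRT222 left unclassed. The values came from 6 RNA-seq libraries whose labels name Huh7, a human liver cancer line (hepatocellular carcinoma), of wild-type genotype. Of these, 3 libraries came from cells held in normoxia (21% oxygen) and 3 from cells held in hypoxia (1% oxygen), each for 24 h. The groups share the same medium, and no other agent is named. The comparison asks which keratin mRNAs differed between low and normal oxygen.

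Keratins polymerise only as pairs of an acidic type I chain and a basic type II chain, and the filaments run from desmosome to desmosome and to hemidesmosomes at the cell base. Hepatocytes make KRT8 and KRT18 alone, and bile duct cells add KRT7 and KRT19. Basal cells of stratified epithelium make KRT5 and KRT14, their differentiating daughters KRT1 and KRT10, and wounded or activated epithelium KRT6, KRT16 and KRT17. Of the 55 genes, 29 are type I and 26 are type II. Human type I genes lie in a cluster on chromosome 17 and type II genes on chromosome 12, except that the type I gene KRT18 lies beside KRT8 on chromosome 12. In these coordinates 28 members were on chromosome 17 and 27 on chromosome 12.

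Expected counts, the reads that RSEM assigns to each transcript, summed to between 37621426 and 40794783 per library. Across genes, which are not independent replicates, log CPM correlated at 0.987 to 0.991 within groups and at 0.914 to 0.919 between them. CPM is the count scaled to the size of the library after TMM, an edgeR scaling factor per library, and it compares 1 gene across libraries. FPKM divides by transcript length and by the plain total of gene counts, without TMM, and is used here to compare genes with each other. Lacking TMM, FPKM shifts changes between groups down against CPM, but its use of transcript lengths can offset this. KRT7, for 1, fell slightly less in FPKM (41.2 to 11.3) than in CPM (52.9 to 14.0). A gene was called when its edgeR quasi-likelihood p, adjusted over 17396 genes, was below 0.05. The labels call the replicates biological and say no more, so such a p reflects how much these 6 libraries vary. Checked against marker genes, the libraries held little or none of most hepatocyte mRNAs that the label would lead one to look for. The identity of the cells is therefore uncertain. Of 12 hepatocyte markers, 9 stood under 1 CPM in both groups, with AFP, APOA1 and TTR at 0 counts and ALB at no more than 3 counts in any library. The markers above that level rose, TF from 8.24 to 12.1 CPM, HNF4A from 1.30 to 7.01 CPM and SERPINA1 from 0.067 to 1.83 CPM. SERPINA1 had at most 5 counts in any normoxia library. It reached the count filter and 1 CPM in hypoxia only, so its inclusion already favoured a rise. CYP2E1, also tested but under 1 CPM, did not pass (log2 change 0.27, edgeR adjusted p = 0.549). Summed hepatocyte markers stood at 9.40 to 11.1 CPM in normoxia and 21.1 to 22.4 CPM in hypoxia. All 7 cholangiocyte markers stood under 1 CPM in both groups, with SCTR at 0, and they summed to 0.858 to 0.939 CPM and 0.689 to 0.982 CPM. In bulk RNA, fewer cells of a type and less RNA per cell cannot be told apart.

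The most abundant keratin mRNA was KRT17 in both conditions, and KRT18 came next. Of the 7 tested keratins of stratified epithelium 5 rose in hypoxia, among them KRT17, KRT16, KRT15 and KRT14, and the other 2, KRT80 and KRT10, fell. The simple keratins KRT18 and KRT7 fell. KRT8 did not pass the test. Of 55 members, 13 reached the filter on low counts, and 6 of these rose, 4 fell and 3 failed the test. Over all genes tested, 72.8% were called, 36.5% up and 36.3% down, so a call by itself is common in these data. The groups did not overlap in 11 of the 13 keratins, against 75.7% of all genes tested. The median log2 change of the tested keratins was 0.17, against 0.02 over all genes tested. KRT3, KRT15 and KRT34 reached the count filter in all 3 libraries of hypoxia only, so their inclusion already favoured a difference.

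**Figure D1:**
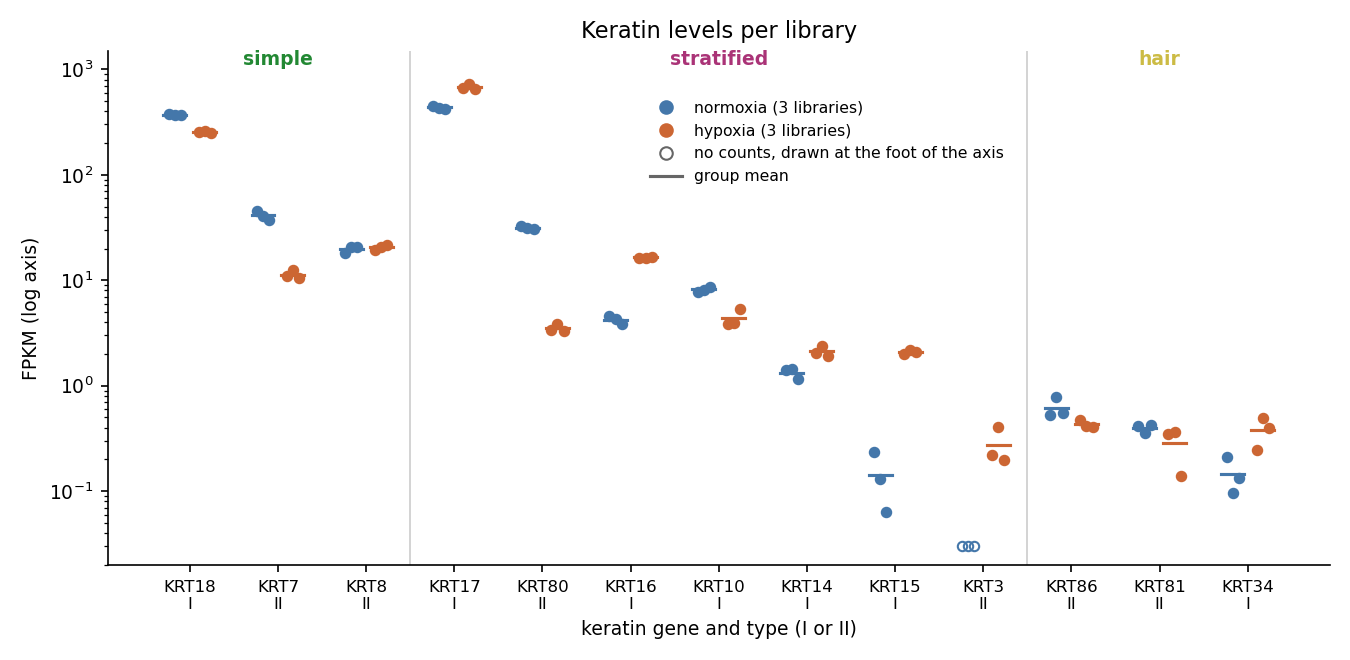
Level of each tested keratin in every library, as FPKM on a log axis, with simple, stratified and hair keratins apart and the type (I or II) under each symbol. Points are libraries (3 in normoxia, 3 in hypoxia) and bars are group means. KRT17 stands highest in both groups, KRT80 and KRT7 drop in hypoxia, KRT16 and KRT15 climb, and KRT3 has no counts in normoxia.

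RefSeq promoter sequences on GRCh38.p14, the 250 bases before the start that RefSeq gives, were matched for 34 of the 55 members, and among tested keratins for KRT3, KRT34, KRT10 and KRT8. The RefSeq start need not be that of the gene model used for counting. The window of KRT34, read from 5′ to 3′, ends inside its GENCODE gene. That of KRT8 lies wholly inside its GENCODE gene, so its sequence is not shown. The others are shown because they belong to members that rose (KRT3, KRT34) and fell (KRT10). They are written from 5′ to 3′ in lower case, and capitals mark TATAAA, the core of a TATA box.
KRT3, chr12:52796118-52796367, minus strand: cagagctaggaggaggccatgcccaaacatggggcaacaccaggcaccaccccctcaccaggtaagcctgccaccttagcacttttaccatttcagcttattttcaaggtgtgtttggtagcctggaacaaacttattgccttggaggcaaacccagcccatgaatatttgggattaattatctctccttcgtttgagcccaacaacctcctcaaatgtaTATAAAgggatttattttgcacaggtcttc
KRT34, chr17:41382307-41382556, minus strand: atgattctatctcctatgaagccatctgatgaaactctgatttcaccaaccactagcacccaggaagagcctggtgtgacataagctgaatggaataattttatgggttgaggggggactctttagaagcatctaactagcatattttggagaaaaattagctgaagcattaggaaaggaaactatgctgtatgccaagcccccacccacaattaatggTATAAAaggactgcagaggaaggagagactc
KRT10, chr17:40822615-40822864, minus strand: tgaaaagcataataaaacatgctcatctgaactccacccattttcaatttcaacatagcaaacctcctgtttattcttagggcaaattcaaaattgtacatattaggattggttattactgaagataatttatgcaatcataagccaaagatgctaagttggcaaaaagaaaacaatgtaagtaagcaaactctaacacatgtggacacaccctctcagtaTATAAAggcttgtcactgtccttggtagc

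Searched on both strands, TATAAA was found in the promoters of KRT3, KRT34 and KRT10, and not in that of KRT8. Its first base was at -30, -31 and -29 from the start, which for KRT34 is inside the GENCODE gene. TATAAA occurred in 20 of the 34 keratin promoters and in 11.1% of 27305 promoters of the same length. ACGTG and GCGTG, the core letters of the hypoxia response element, occurred in 0 of these 4 promoters, in 7 of 34 keratin promoters and in 43.1% of all promoters. These matches and gaps describe the letters in the window and say nothing on whether a factor binds.

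Of the 6 simple keratins, 3 were tested, and KRT18 and KRT7 fell while KRT8 did not pass. Over all genes tested, 36.3% fell. KRT18 (chr12:52948871-52952901), the type I chain of the hepatocyte pair, stood at 502.7, 500.5 and 486.4 CPM in normoxia C1, C2 and C3 and at 373.4, 391.0 and 365.7 CPM in hypoxia C4, C5 and C6. All 3 hypoxia libraries lay below all normoxia libraries. The mean fell from 496.5 ± 8.84 to 376.7 ± 13 CPM (mean ± SD, n = 3), and the log2 change was -0.40 ± 0.04 (SE, edgeR adjusted p = 5.27e-06) or 1.32-fold lower. As a per-length level this was 371.8 FPKM in normoxia and 253.8 FPKM in hypoxia. The transcript KRT18-201 carried most of it, at 481.5 and 362.8 CPM.

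KRT7 (chr12:52232520-52252186), a type II chain of ducts and glands, stood at 56.3, 53.5 and 48.8 CPM in normoxia and at 14.3, 14.8 and 12.8 CPM in hypoxia. The groups were far apart, and the mean fell from 52.9 ± 3.79 to 14.0 ± 1.05 CPM (SD, n = 3). The log2 change was -1.92 ± 0.08 (SE, edgeR adjusted p = 3.34e-09), or 3.79-fold lower. Its single coding transcript, KRT7-201, fell from 46.1 to 10.2 CPM, and its share of the gene's counts was 87.3% in normoxia and 72.7% in hypoxia. The antisense gene KRT7-AS, which shares 282 exon bases with KRT7, had 0.219 and 0.096 CPM.

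KRT8 (chr12:52897187-52949954), the type II partner of KRT18, stood at 24.8, 29 and 26.3 CPM in normoxia and at 27.0, 30.5 and 32.4 CPM in hypoxia. The groups overlapped. The means were 26.7 ± 2.10 and 30.0 ± 2.72 CPM (mean ± SD, n = 3), and the log2 change was 0.17 ± 0.08 (SE, edgeR adjusted p = 0.0901). KRT8 passed without hypoxia C4 (log2 change 0.23, edgeR adjusted p = 0.0265) and with its pseudogenes added (0.26, edgeR adjusted p = 0.00658), and its log2 change was 0.01 when libraries were scaled by their totals. Its level needs care. Only 45.6% of its counts in normoxia and 59.4% in hypoxia lay in coding transcripts, with 47.5% and 28.8% in retained-intron transcripts. Its exons share 525 bases with those of KRT18 on the opposite strand, and rows with no gene in the annotation used could hold further KRT8 transcripts. Tested among transcripts, of which 31.7% were called, the most abundant coding one, KRT8-217, rose from 5.20 to 9.55 CPM (log2 change 0.85 ± 0.11 SE, edgeR adjusted p = 0.00214).

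The other simple keratins were at or near the limit of counting. KRT19, the type I chain of bile ducts, had 0, 8 and 2 counts in normoxia and 21, 10 and 9 in hypoxia, with means of 0.0836 and 0.382 CPM, and stayed below the filter. The groups did not overlap, by 1 count. Where the filter admitted it, without normoxia C2, without hypoxia C6 or with no filter on low counts, it was called. KRT23, an inducible type I keratin of gut and liver, had 0 counts in normoxia and 2, 2 and 3 in hypoxia. KRT20, a marker of intestinal epithelium, had 0 in all 6 libraries. Where no read was counted, a level of up to 0.0757 CPM (normoxia) or 0.0868 CPM (hypoxia) is allowed, for 3 counts per library and counting error only.

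Of the 22 keratins of stratified epithelium, 7 were tested, 5 rose and 2 fell, beside 36.5% up and 36.3% down over all genes tested. Of the 5, KRT3 and KRT15 reached the count filter in all 3 libraries of hypoxia only, so their inclusion already favoured a rise. KRT17 (chr17:41619441-41624842), a type I chain of appendages and activated epidermis, stood at 644.4, 619.4 and 607.2 CPM in normoxia and at 1060, 1162 and 1049 CPM in hypoxia. Every hypoxia library was above every normoxia library. The mean rose from 623.6 ± 19.0 to 1090 ± 62.4 CPM (mean ± SD, n = 3), and the log2 change was 0.81 ± 0.05 (SE, edgeR adjusted p = 7.4e-08) or 1.75-fold. Its level per length was 434.6 ± 14.9 FPKM in normoxia and 683.1 ± 32.5 FPKM in hypoxia, above KRT18 in each library. The coding transcript KRT17-201 rose from 610.9 to 1058 CPM, and the retained-intron transcript KRT17-204 rose from 10.1 to 27.5 CPM.

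KRT16 (chr17:41609778-41615899), a neighbour of KRT17 that is made in wounded and hyperproliferative epidermis, stood at 5.59, 5.65 and 5.33 CPM in normoxia and at 26.3, 26.0 and 27.1 CPM in hypoxia. The libraries of each group were close together and the groups far apart. The mean rose from 5.52 ± 0.170 to 26.4 ± 0.546 CPM (mean ± SD, n = 3), and the log2 change was 2.26 ± 0.07 (SE, edgeR adjusted p = 7.62e-10) or 4.79-fold. KRT16 shares 9.68% of the 75-base windows of its main transcript with other genes, among them KRT14 and its own pseudogenes. Summed with its 6 pseudogenes, its log2 change was 1.73 ± 0.07 (SE). Of its transcripts, KRT16-201 rose from 4.12 to 23.4 CPM, while KRT16-204 stood at 1.24 and 2.06 CPM and did not pass.

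KRT15 (chr17:41513743-41522529), a type I chain of basal and hair bulge cells, stood at 0.481, 0.328 and 0.134 CPM in normoxia and at 3.99, 3.95 and 4.25 CPM in hypoxia. It was scarce in normoxia and present in all hypoxia libraries. The mean rose from 0.314 ± 0.174 to 4.06 ± 0.162 CPM (mean ± SD, n = 3), and the log2 change was 3.69 ± 0.31 (SE, edgeR adjusted p = 1.43e-06) or 12.9-fold. The size depends on the scale, with a log2 change of 2.02 by limma on log2(FPKM + 0.5), which understates changes of low genes. No 75-base window of its main transcript was shared with another gene. The coding transcripts KRT15-201 and KRT15-202 both rose.

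KRT14 (chr17:41582279-41586921), the type I chain of basal keratinocytes, stood at 2.06, 1.92 and 1.76 CPM in normoxia and at 3.30, 3.79 and 3.34 CPM in hypoxia. The groups did not overlap. The mean rose from 1.92 ± 0.153 to 3.47 ± 0.272 CPM (mean ± SD, n = 3), and the log2 change was 0.85 ± 0.16 (SE, edgeR adjusted p = 0.000576). Its main transcript shares 10.0% of windows with other genes, mainly KRT16, so some reads may have been divided between the pair. KRT3 (chr12:52789685-52796117), the type II chain of cornea, had 0 counts in normoxia and 19, 35 and 16 in hypoxia, where its mean was 0.674 CPM. This was at least 8.90-fold higher than the floor of 3 counts per library (edgeR adjusted p = 0.000105).

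KRT80 (chr12:52168996-52192000), a type II chain found at desmosomes and cell margins, stood at 115.3, 112.2 and 109.8 CPM in normoxia and at 13.1, 15.3 and 13.3 CPM in hypoxia. Among the tested keratins with counts in both groups it had the largest fall. The mean fell from 112.4 ± 2.76 to 13.9 ± 1.23 CPM (mean ± SD, n = 3), and the log2 change was -3.02 ± 0.06 (SE, edgeR adjusted p = 4.2e-11) or 8.09-fold lower. All 3 of its transcripts fell. KRT80-201 went from 42.4 to 3.33 CPM, KRT80-202 from 42.4 to 6.60 CPM and the retained-intron KRT80-203 from 27.6 to 3.95 CPM. None of the 75-base windows of KRT80-202, the transcript searched, was shared with another gene.

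KRT10 (chr17:40818117-40822595), the type I chain of differentiating keratinocytes, stood at 15.6, 16.7 and 17.7 CPM in normoxia and at 8.61, 8.93 and 12.2 CPM in hypoxia. Hypoxia C6 lay nearest to normoxia, and the groups did not overlap. The mean fell from 16.7 ± 1.07 to 9.91 ± 1.98 CPM (mean ± SD, n = 3), and the log2 change was -0.75 ± 0.13 (SE, edgeR adjusted p = 0.000303) or 1.68-fold lower. Its exons share 56 bases with TMEM99 on the opposite strand, which had 5.77 and 4.58 CPM.

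**Figure D2:**
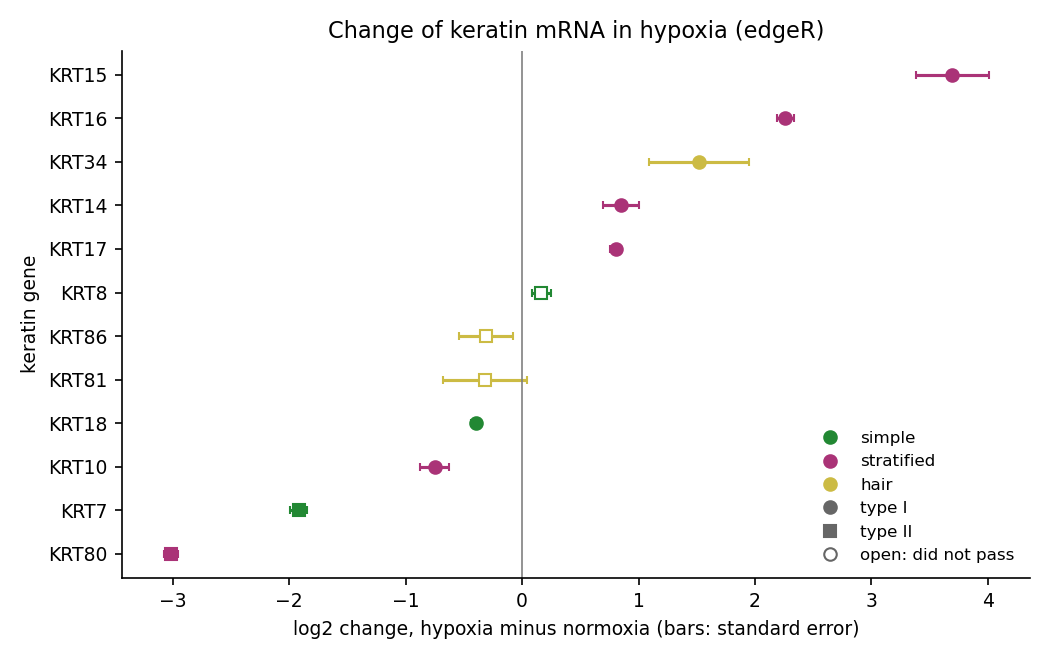
Log2 change of each tested keratin in hypoxia against normoxia by edgeR, with bars for the standard error, colour for the class and marker shape for the type. Filled markers passed the threshold. KRT15 at 3.69 and KRT16 at 2.26 lie furthest to the right and KRT80 at -3.02 furthest to the left. KRT3, with 0 counts in normoxia, is not drawn.

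The usual type II partners of the risen epithelial type I chains KRT14, KRT15, KRT16 and KRT17 had no counts. KRT5, the partner of KRT14 and KRT15, had 0 counts in all 6 libraries, and so did KRT6A, KRT6B and KRT6C, the partners of KRT16 and KRT17, as well as KRT1 and KRT2, the partners of KRT10. The limit set by 3 counts per library applies to each of them. Of the 15 untested stratified keratins, 10 had 0 counts in all libraries. KRT9, the keratin of palm and sole skin, had 6, 7 and 1 counts in normoxia and 6, 13 and 7 in hypoxia. KRT79 had 0 counts in normoxia and 2, 3 and 5 in hypoxia. The remaining members, KRT12, KRT13 and KRT78, had at most 2 counts in any library.

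Of the 17 hair keratins, 3 were tested, all below 1.5 CPM. KRT34, a type I chain of the hair cortex, stood at 0.327, 0.150 and 0.204 CPM in normoxia and at 0.421, 0.864 and 0.689 CPM in hypoxia. The groups were apart by a small margin. The mean rose from 0.227 to 0.658 CPM, a log2 change of 1.52 ± 0.43 (SE, edgeR adjusted p = 0.00841), and the call was lost when its only transcript was tested among transcripts (1.49, edgeR adjusted p = 0.0651). The main transcripts of the type II hair keratins KRT81 and KRT86 share 36.6% and 32.6% of windows with other genes, mainly each other. The separate values of these genes are therefore uncertain. KRT81 had a log2 change of -0.32 ± 0.36 (SE, edgeR adjusted p = 0.439). KRT86 had a log2 change of -0.31 ± 0.23 (SE, edgeR adjusted p = 0.247). Their relative KRT83 had 2, 8 and 7 counts in normoxia and 0, 1 and 0 in hypoxia, below the filter. KRT32 and KRT33B had at most 4 counts in any library, and the other 11 untested hair keratins had 0. None of the 9 root sheath keratins was tested. KRT72 and KRT73 had at most 2 counts in any library, the other 7 had 0, and so did KRT222.

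Counted by type, 7 type I keratins were tested. Of these, 5 rose and 2 fell, and their median log2 change was 0.85. Of 6 tested type II keratins, 1 rose, 2 fell and 3 did not pass (median -0.32). By chromosome, 5 of 6 tested members on chromosome 17 rose and 1 fell, while on chromosome 12 1 of 7 rose, 3 fell and 3 did not pass. Over all genes tested, 36.5% rose and 36.3% fell. KRT15 and KRT34, risen type I genes on chromosome 17, reached the count filter in all 3 libraries of hypoxia only. So did KRT3, the only risen type II gene and the only riser on chromosome 12. Inclusion of these genes already favoured a rise, which also bears on the medians. These counts were not tested against each other.

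The make-up of the keratin mRNA differed accordingly. KRT17 held 47.1% to 48.0% of the summed keratin FPKM in normoxia and 68.0% to 69.0% in hypoxia. KRT18 held 40.2% to 40.9% and then 24.9% to 25.8%. The share of KRT17 was higher and that of KRT18 lower in each hypoxia library than in any normoxia library. The share of KRT8 was 1.92% to 2.33% and 1.96% to 2.23%, with the groups overlapping. KRT7 held 4.18% to 4.81% in normoxia and 1.10% to 1.20% in hypoxia. KRT80 held 3.44% to 3.47% and 0.343% to 0.372%. Both of these type II chains thus had a smaller part of the keratin mRNA in hypoxia. KRT16 held 0.429% to 0.482% and 1.56% to 1.73%. As a class, simple keratins made up 46.9% to 47.7% in normoxia and 28.1% to 28.9% in hypoxia, and stratified keratins 52.1% to 53.0% and 70.9% to 71.8%. The class totals thus followed KRT17 and KRT18, which together held most of the keratin mRNA. Shares within a sum are tied to each other, so a larger share of 1 member lowers the rest. All keratins together summed to 1306 to 1370 CPM in normoxia and 1524 to 1661 CPM in hypoxia, and to 892.9 to 940.8 FPKM and 967.6 to 1043 FPKM, with no overlap on either scale. As an unscaled share of gene counts they took 0.138% to 0.145% and 0.144% to 0.155%, where the ranges overlap. These sums were not tested.

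**Figure D3:**
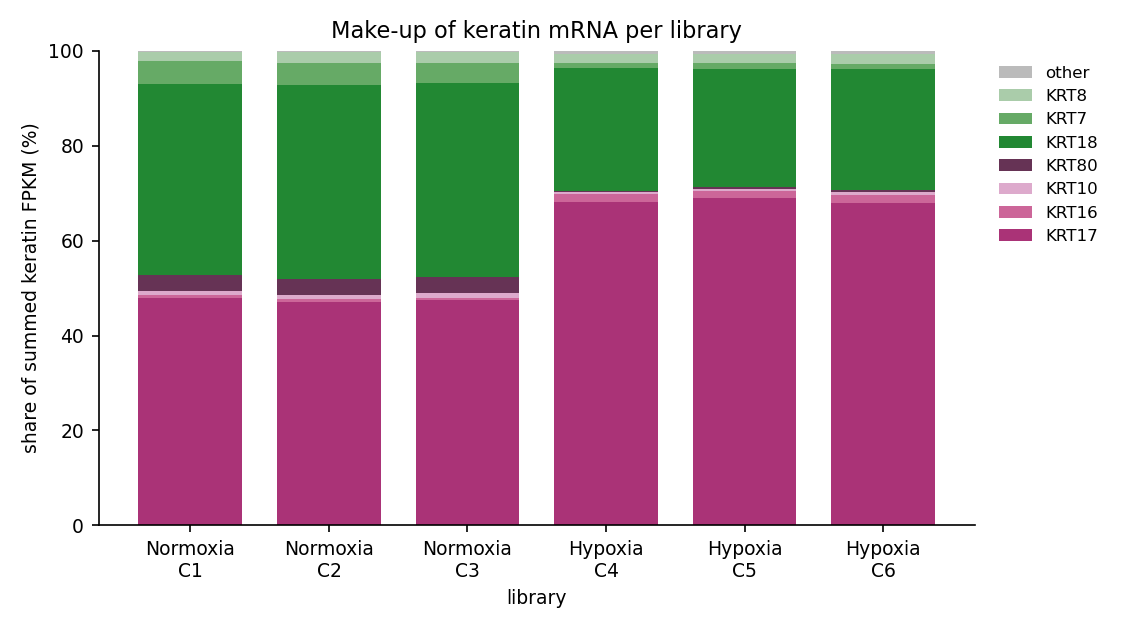
Share of each keratin in the summed keratin FPKM of every library, in percent, as stacked bars from 0 to 100. The bars of the 3 normoxia libraries look alike, as do those of the 3 hypoxia libraries. KRT17 takes 47.1% to 48.0% in normoxia and 68.0% to 69.0% in hypoxia, and the bands of KRT18, KRT7 and KRT80 are thinner in hypoxia.

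The ratio of summed type I to summed type II keratin FPKM was 8.71, 8.65 and 8.91 in normoxia and 27.4, 26.0 and 25.7 in hypoxia. Each hypoxia library was above each normoxia library. The mean log2 ratio differed by 1.59, and the exact two-sided permutation test gave p = 0.1, the smallest p that 3 against 3 libraries allow. The difference in log2 ratio was 2.09 with sums of CPM, 0.39 with simple keratins only and 2.44 without KRT8. The level of KRT8 may be incomplete, and leaving it out cannot show the ratio at a fuller count. More KRT8, added equally to both groups, would make the difference smaller. By how much was not tested. Summed type II FPKM ranged from 90.1 to 96.9 in normoxia and from 34.8 to 38.6 in hypoxia, and summed type I FPKM from 802.8 to 843.9 and from 931.3 to 1005. The type II sum held mostly KRT7, KRT80 and KRT8, of which the first and second fell.

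Keratin filaments are anchored by desmosomes and hemidesmosomes, and most tested genes of these junctions rose. Of 20 listed, 15 were tested, 12 rose, 2 fell and 1 did not pass. Their median log2 change was 0.83 (0.68 when libraries were scaled by their totals) beside 0.02 over all genes tested, of which 36.5% rose. PKP1 and DSC3 reached the count filter in hypoxia only, so their inclusion among the 12 already favoured a rise. ITGB4, the hemidesmosome integrin, rose from 6.35 ± 0.216 to 80.1 ± 4.94 CPM (mean ± SD, n = 3), and the log2 change was 3.66 ± 0.07 (SE). COL17A1, the collagen of hemidesmosomes, rose from 0.733 to 12.1 CPM, PPL (periplakin), which links keratin to the junction, from 86.3 to 427.8 CPM, and the plakophilin PKP3 from 22.3 to 70.9 CPM. DSP (desmoplakin), the main keratin anchor of desmosomes, rose from 30.8 to 52.8 CPM. JUP (plakoglobin) and PLEC (plectin), linkers of filaments to the junction, rose by log2 changes of 0.24 and 0.21. Both calls were lost with library totals (0.09 and 0.05) and with limma (0.12 and 0.02). The limma fits used FPKM, which also lacks TMM, so they are not a separate check. EVPL (envoplakin), named after its value was seen, fell from 43.7 to 18.2 CPM, unlike its partner PPL.

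Other intermediate filament genes showed no shared direction. Of 9 tested of 15, 3 rose, 4 fell and 2 did not pass (median log2 change -0.01). The shares over all genes tested were 36.5% up and 36.3% down. VIM (vimentin), the filament of mesenchymal cells and of many cultured lines, stood at 914.0, 919.5 and 916.9 CPM in normoxia and at 1672, 1720 and 1632 CPM in hypoxia, a log2 change of 0.87 ± 0.04 (SE, edgeR adjusted p = 4.08e-09). Its level per length was 520.3 FPKM in normoxia and 854.5 FPKM in hypoxia, above that of KRT17 in both. The nuclear lamin LMNA rose from 67.8 to 124.7 CPM and the lens filament gene BFSP1 from 2.01 to 5.49 CPM, and LMNB1, a lamin of the nuclear rim, fell from 115.5 to 82.0 CPM. Mesenchymal markers summed to 80.5 to 83.1 CPM in normoxia and 69.8 to 80.6 CPM in hypoxia, with 4 of 8 under 1 CPM in both groups and COL1A2 at 0. COL1A1 made up most of that sum and fell from 71.4 to 56.9 CPM. The other 4 tested markers rose, PDGFRB 2.87-fold, COL3A1 2.70-fold, TAGLN 1.97-fold and ACTA2 1.5-fold. COL3A1 stood at 0.151 and 0.413 CPM and reached the count filter in hypoxia only, so its inclusion already favoured a rise. Endothelial markers summed to 11.3 to 12.3 and 4.97 to 5.79 CPM with KDR at 0. Among them CDH5 fell from 9.15 to 0.453 CPM and VWF from 0.504 to 0.196 CPM, while PECAM1 rose from 2.11 to 4.86 CPM. VWF reached the count filter in all 3 libraries of normoxia only, so its inclusion already favoured a fall. Leukocyte markers summed to 0.925 to 1.13 and 1.60 to 2.28 CPM with PTPRC at 0. The part of these cell types in the VIM and keratin values was not tested.

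Late keratinocyte genes were mostly absent. Of 27 cornified envelope genes 15 had 0 counts in all libraries and 4 were tested. Of these, 3 rose and 1 did not pass, beside 36.5% up and 36.3% down over all genes tested. CASP14, the protease of cornifying cells, stood at 0.831, 0.300 and 0.331 CPM in normoxia and at 49.2, 49.8 and 45.9 CPM in hypoxia, a log2 change of 6.62 ± 0.19 (SE). CNFN (cornifelin), an envelope protein, rose from 0.395 to 2.48 CPM, and FLG (filaggrin), named after its value was seen, had 0 counts in normoxia and 0.983 CPM in hypoxia. The list median was 4.63, and 3.17 with FLG set at its lower bound, over 4 genes only. FLG reached the count filter in hypoxia only, which favoured a rise, so the count and the median of this list carry little weight. Markers of squamous and basal epithelium summed to 0.914 to 1.25 CPM in normoxia and 12.1 to 14.5 CPM in hypoxia. Of these 7 markers, 6 stood under 1 CPM in both groups, with IVL, SPRR1B and KRTDAP at 0, and COL17A1 made up most of the sum. Their part in the keratin values was not tested.

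Transcription factors of epithelium moved in both directions. Of 22 listed, 11 were tested, 2 rose, 6 fell and 3 did not pass, beside 36.5% up and 36.3% down over all genes tested. The median log2 change was -0.19 (-0.34 with library totals). ELF3, an epithelial ETS factor, rose from 14.9 ± 0.889 to 129.8 ± 1.19 CPM (mean ± SD, n = 3), and the log2 change was 3.12 ± 0.05 (SE). GATA3 fell from 6.69 to 0.974 CPM and EHF, another ETS factor, from 3.77 to 0.934 CPM. MSX2, a homeobox gene of skin appendages, fell from 1.87 to 1.20 CPM, a call that was lost with DESeq2 (log2 change -0.65, DESeq2 adjusted p = 0.0585) and without normoxia C1, normoxia C2 or hypoxia C5 (-0.55, -0.69 and -0.46). TP63, the master factor of basal keratinocytes, stood at 0.167 and 0.164 CPM, below the filter. Markers of simple epithelium summed to 23.7 to 25.2 CPM in normoxia and 140.3 to 141.7 CPM in hypoxia, mostly ELF3, with 3 of 6 under 1 CPM in both groups and ESRP1 at 0. Their part in the keratin values was not tested.

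All 13 listed genes that bind, modify or cleave keratins were tested, and 5 rose, 7 fell and 1 did not pass (median log2 change -0.18). Among all genes tested, 36.5% rose and 36.3% fell. SFN (14-3-3 sigma), which binds KRT17, rose from 83.2 to 166.7 CPM. SQSTM1, a component of the keratin inclusions seen in liver disease, rose from 256.0 to 502.8 CPM. TRADD, which binds KRT18 and KRT14, rose from 8.84 to 21.4 CPM. CASP6, a caspase that cleaves KRT18, fell from 6.37 to 2.36 CPM.

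**Figure D4:**
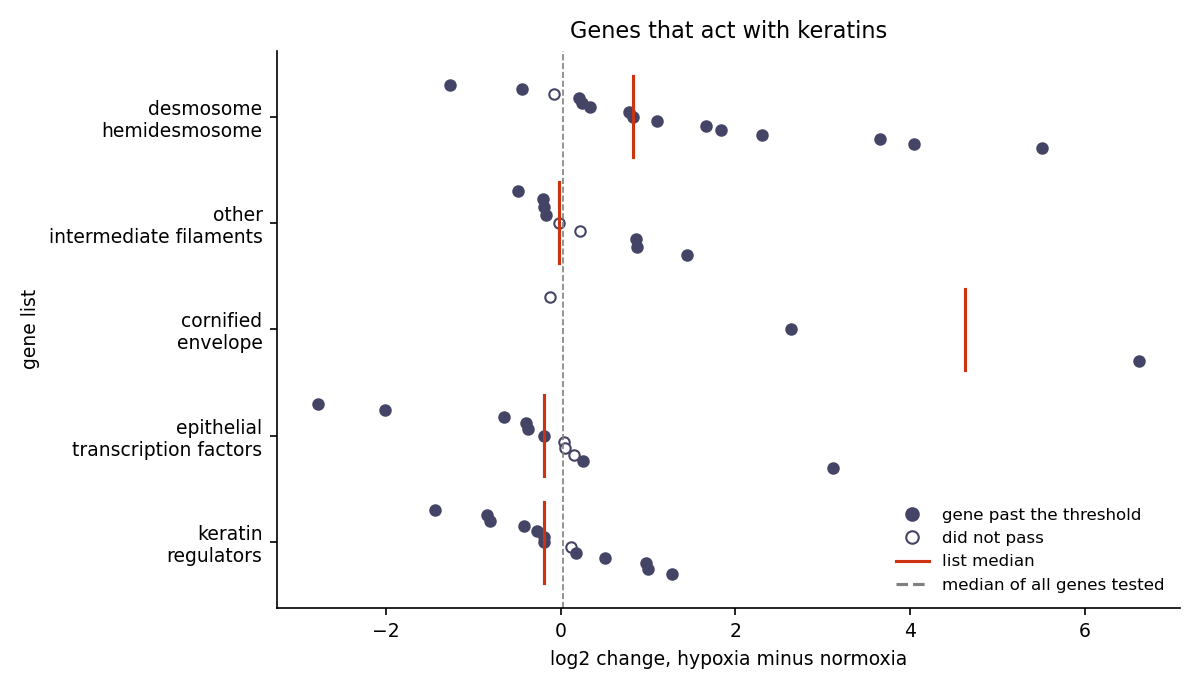
Log2 change in hypoxia against normoxia of the tested genes in 5 lists of genes that act with keratins. Points are genes, filled when past the threshold, red bars are list medians and the dashed line is the median of all genes tested at 0.02. The junction list lies mostly to the right, with a median of 0.83, and the other lists of 9 or more genes straddle the line. FLG, with 0 counts in normoxia, enters the median but is not drawn.

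Scaling by library totals in place of TMM shifted the median log2 change of all genes from 0.02 to -0.13, and the tested keratins moved down with it. KRT17 then had a log2 change of 0.65, KRT18 -0.55 and KRT80 -3.17, and the calls of the 13 tested keratins did not change. Under every alternative run, the 10 called keratins that could be fitted kept their direction.

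**Figure D5:**
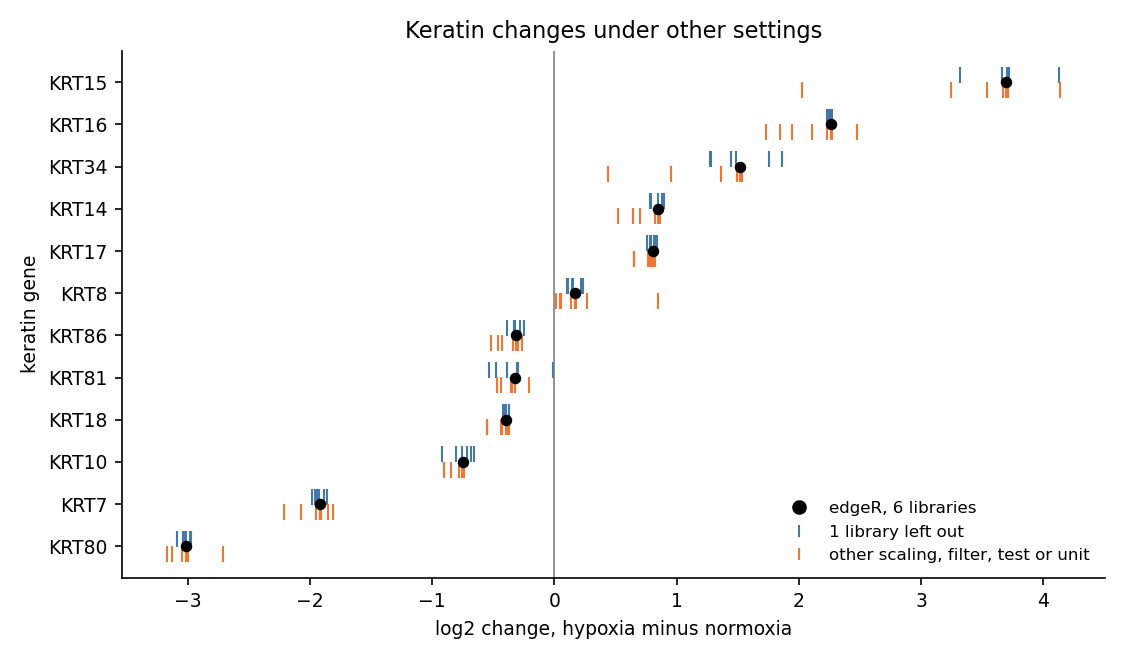
Log2 change of each tested keratin in edgeR on all 6 libraries (black points), with 1 library left out (blue ticks) and under other scalings, filters, tests or units (orange ticks). For the called keratins no tick crosses 0. KRT15 spreads from 2.02 to 4.14, KRT17 from 0.65 to 0.84 and KRT8 from 0.01 to 0.85. KRT3 is not drawn.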

How the data were processed

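RNA was measured in 6 libraries, 3 in normoxia and 3 in hypoxia. Per the labels' protocols, libraries were rRNA-depleted, strand-specific and paired-end. The tools named in the submitters' processing notes are cutadapt, HISAT2 and RSEM, with GRCh38 (hg38) as the genome. Their versions, the annotation and any use of strand in counting were not given in the sources. The authors deposited expected counts, lengths and FPKM for 251062 transcripts, and their 6 FPKM columns were not used. FPKM here was recomputed from the deposited expected counts and lengths, with plain totals of gene counts and no TMM. Column names gave the condition of a library and no replicate number, so libraries are named by column (C1 to C6).

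Gene values are sums over transcripts by GENCODE release 29. The 48155 rows with no gene held 6.12% to 6.39% of counts per library and were left out. Sums were rounded, filtered with filterByExpr, scaled by TMM and tested two-sided with edgeR 4.0.16 (R 4.3.3), with Benjamini-Hochberg adjustment over 17396 genes. The SE is the log2 change divided by the square root of F. Alternatives used DESeq2 1.42.0, limma 3.58.1 on log2(FPKM + 0.5) and log2(FPKM + 0.1), other scalings and filters, transcripts, pseudogene sums and each library left out.

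The keratins, gene lists and rule for named genes were chosen with earlier results of these data known. The rule named each tested keratin, 6 simple keratins, VIM, LMNA, DSP, JUP, PLEC and TP63, and per list up to 4 called genes with the largest change, no overlap and 1 CPM or more in a group. On data simulated for this comparison with 17026 genes tested, edgeR found 68.7% of the 67 genes given a 1.5-fold change, 77.6% of the 67 given a 2-fold change and 97% of the 66 given a 4-fold change. It called 0.0475% of 16826 unchanged genes. Changes were given only to genes with higher counts than KRT3 or KRT34, and to few genes, whereas 72.8% were called in the data. These rates therefore do not give the share of changes found here. No library was a copy of another, since chi-square over its degrees of freedom was 4.47 to 10.9 for pairs of 1 group.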

Additional observations from a re-analysis of the deposited data

How the results depend on the processing

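The number of genes called ranged from 11882 to 13458 over the alternatives, and from 11882 to 12439 with 1 library left out. Risen keratins numbered 4 to 8, and 6 to 7 with 1 library left out, and fallen keratins 4 to 5. A filter of mean FPKM 0.5 removed KRT3 and KRT34, and no filter on low counts added KRT19, KRT79 and KRT83. Of 192 alternative values for the tested keratins, 188 kept their direction and side of the threshold, 1 lost the call (KRT34) and 3 gained it (KRT8). Of 273 such values for 21 named genes of the other lists, 263 kept both and 10 lost the call, all in JUP, PLEC and MSX2. By limma on log2(FPKM + 0.5), log2 changes were 0.62 for KRT3, 0.44 for KRT34 and 0.52 for KRT14. The difference in log2 ratio of type I to type II was 1.56 to 1.61 with 1 library left out, a design whose exact permutation p cannot go below 0.2. No paired analysis was possible because the column names carry no replicate number. Depth limits the 42 untested keratins, whose highest count was 21.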

Other observations

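Keratin pseudogenes also held counts. The 8 pseudogenes of KRT17 summed to 6.61 CPM (normoxia) and 2.43 CPM (hypoxia), 0.959% to 1.17% and 0.188% to 0.250% of the sum with KRT17, which itself rose. KRT17P2 fell from 5.04 to 1.66 CPM, a log2 change of -1.60 ± 0.18 (SE, edgeR adjusted p = 1.57e-05). The 6 pseudogenes of KRT16 summed to 4.55 and 7.05 CPM, which is 42.8% to 47.1% and 17.1% to 25.1% of the sum with KRT16. KRT16P3 rose from 0.154 to 1.57 CPM, but it reached the count filter in hypoxia only, so its inclusion already favoured a rise. The 50 pseudogenes of KRT8 summed to 15.1 and 20.3 CPM, 33.8% to 38.7% and 39.6% to 41.0% of the sum with KRT8. The 67 pseudogenes of KRT18 summed to 10.1 and 14.7 CPM, 1.83% to 2.20% and 3.32% to 4.18% of the sum with KRT18. Of the 75-base windows of the main transcript, 9.68% in KRT16, 5.85% in KRT18, 4.57% in KRT17 and 0.296% in KRT8 also occur in another gene, and for KRT8 the genes sharing them were LY9, TLCD2 and RICTOR. How far reads were divided between pseudogene and parent was not tested.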
